A study of Mus musculus with 16 samples.

Results

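The genes described here are 9 genes that are read as signs of cell senescence, Cdkn2a, Cdkn2b, Cdkn1a, Trp53, Mdm2, Glb1, Lmnb1, Il6 and Ccl2. They were picked from the tables by gene symbol. All 9 were among the 38933 genes of the cortical bone table, and 6 were among the 21011 genes of the skeletal muscle table, which had no row for Cdkn2a, Il6 and Ccl2. Bulk RNA-seq was available for 16 libraries of female C57BL/6 mice, 4 per group and tissue, with 1 tibialis anterior muscle per mouse. The sources used here do not say whether the bone and muscle libraries came from the same mice. Treatment began at 18 months of age, when the mice received BAY2416964 (BAY) at 30 mg/kg, an oral antagonist of the aryl hydrocarbon receptor (AhR), or its vehicle (VEH) by gavage on 5 days per week for 8 weeks. The bone samples were cortical shafts treated with collagenase once their marrow had been used for stromal cell culture, and the muscle was the tibialis anterior. All mice were aged and no young group was measured, so the values compare treatments within old tissue.

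Senescent cells have left the cell cycle for good, and they stay alive and secretory. The CDK inhibitors p16 (Cdkn2a), p15 (Cdkn2b) and p21 (Cdkn1a) keep the retinoblastoma proteins in their growth-blocking state. Cdkn2a also encodes p19ARF in another reading frame, which is no CDK inhibitor and protects p53 by binding Mdm2. The transcription factor p53 (Trp53) switches on Cdkn1a and also Mdm2, the ubiquitin ligase that removes p53, so that Mdm2 RNA is often read as p53 output. Senescent cells also stain for the lysosomal beta-galactosidase encoded by Glb1, lose lamin B1 (Lmnb1) from the nuclear envelope, and release factors such as interleukin 6 (Il6) and the monocyte attractant Ccl2. In aged bone, cells with these features include osteocytes and myeloid cells. In aged muscle they have been described mainly among the mononuclear cells between the fibres.

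Start sites from RefSeq were on hand for 7 of the 9 genes, with 250 bases before and 50 bases after each start. Lmnb1 and Ccl2 had no entry. The windows were found by exact match in GRCm39, the build that the tables use as mm39. Both strands were searched for GCGTG (the core that AhR binds, CACGC on the other strand), for CATGNNNNNNCATG (a pair of CATG cores as in p53 sites) and for GGGANNTTCC (an NF-kB type of site, GGAANNTCCC on the other strand), and no matches overlapped. Among 32544 distinct windows of the same length, 32.6% held the AhR core, 0.624% the p53 pair and 1.47% the NF-kB letters. The 4 windows below are shown because Mdm2 and the p19ARF start of Cdkn2a hold AhR cores, the upstream start of Cdkn1a holds the p53 pair, and Il6 holds the NF-kB letters. Capitals mark these letters, and a match describes the sequence and is no evidence of binding.
Mdm2, chr10:117546614-117546913, minus strand, 2 AhR cores from 49 bases to 36 bases before the start: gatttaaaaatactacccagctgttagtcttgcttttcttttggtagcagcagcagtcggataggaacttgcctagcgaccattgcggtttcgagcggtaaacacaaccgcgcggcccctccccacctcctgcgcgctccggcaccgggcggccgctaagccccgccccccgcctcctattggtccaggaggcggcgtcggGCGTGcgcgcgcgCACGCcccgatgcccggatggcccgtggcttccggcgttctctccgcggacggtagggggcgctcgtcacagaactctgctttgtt
Cdkn2a, p19ARF start, chr4:89212807-89213106, minus strand, 4 AhR cores from 242 bases to 7 bases before the start: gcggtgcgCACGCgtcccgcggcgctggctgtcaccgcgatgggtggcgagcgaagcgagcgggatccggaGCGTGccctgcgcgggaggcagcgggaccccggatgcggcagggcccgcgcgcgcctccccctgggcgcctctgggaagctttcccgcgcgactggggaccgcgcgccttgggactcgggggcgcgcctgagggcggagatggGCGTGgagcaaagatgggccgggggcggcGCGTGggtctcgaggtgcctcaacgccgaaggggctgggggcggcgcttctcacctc
Cdkn1a, upstream start, chr17:29309703-29310002, plus strand, p53 pair 48 bases before the start: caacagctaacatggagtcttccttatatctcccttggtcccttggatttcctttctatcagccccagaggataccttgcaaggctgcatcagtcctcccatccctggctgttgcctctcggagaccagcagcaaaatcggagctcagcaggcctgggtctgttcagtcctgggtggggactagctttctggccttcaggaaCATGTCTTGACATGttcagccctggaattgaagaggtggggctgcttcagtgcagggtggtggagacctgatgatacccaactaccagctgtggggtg
Il6, chr5:30217862-30218161, plus strand, NF-kB letters 44 bases before the start: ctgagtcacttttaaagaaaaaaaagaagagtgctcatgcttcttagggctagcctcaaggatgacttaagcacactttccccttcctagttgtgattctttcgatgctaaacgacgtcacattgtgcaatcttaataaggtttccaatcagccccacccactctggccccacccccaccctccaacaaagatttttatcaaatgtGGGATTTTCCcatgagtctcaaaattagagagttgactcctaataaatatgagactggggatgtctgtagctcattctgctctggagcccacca
Of the other windows, Cdkn2b and the downstream start of Cdkn1a held 1 AhR core each, Trp53 held the NF-kB letters, and the second Cdkn2a window and the Glb1 window held none of these motifs.

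The libraries differed in depth, in background and in tissue makeup. The reads counted on genes ranged from 1086220 to 6951908 per VEH library and from 930306 to 2418088 per BAY library in cortical bone, and from 7172568 to 9262351 and from 6131905 to 7751388 in skeletal muscle. A value of 3 reads, taken as the floor of detection, was 0.432 to 3.22 CPM (counts scaled to a common library total) in bone and 0.324 to 0.489 CPM in muscle, and floors cover counting error only. VEH replicate 1 of bone stood apart, with 34.0% of genes listed at 0 against 3.65% to 8.75% in the other bone libraries, and with 0.138 CPM per kilobase on olfactory receptor genes, which bone should not transcribe, against 1.47 to 9.50 in the others. The osteoblast and osteocyte markers (8 of 8 in the bone table) summed to 228 to 5206 CPM in VEH and 173 to 2628 CPM in BAY, and the muscle fibre markers (8 of 8) to 37.1 to 8944 CPM and 75.7 to 35979.5 CPM in the same bone libraries. BAY replicates 1 and 2 held the highest fibre sums, 32630 and 35979.5 CPM, against 1239 and 75.7 CPM in BAY replicates 3 and 4. Among the VEH libraries, replicate 1 held 8944 CPM, against 198, 73.7 and 37.1 CPM in replicates 2 to 4. No gene of either list was at 0 in all bone libraries. In bulk tissue, fewer cells of a type and less RNA per cell cannot be told apart. In muscle the fibre markers summed to 98226 CPM or more in every library. VEH replicate 3 of muscle, whose deposited column bears the word replacement, had 86.2 CPM on the adipocyte markers (5 of 5) against 1.81 to 5.01 CPM in the other VEH libraries and 1.24 to 2.94 CPM in BAY.

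The first question was whether BAY moved the 9 genes in aged cortical bone. None did so beyond the spread between mice. The groups overlapped for all 9 genes, none reached an unadjusted P value of 0.05 with limma or with voom on recovered reads (3.68% of all bone genes did with voom), and the adjusted P values in limma with Benjamini-Hochberg adjustment over all genes were 0.887 or higher. Over all bone genes, 0.64% passed that unadjusted threshold, the same 0.64% also had a fold change of at least 2 and were thus called, and 0.406% had groups that did not overlap. None of the 9 genes counted here was called, and with background shares this small that count says little about these genes.

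**Figure D1:**
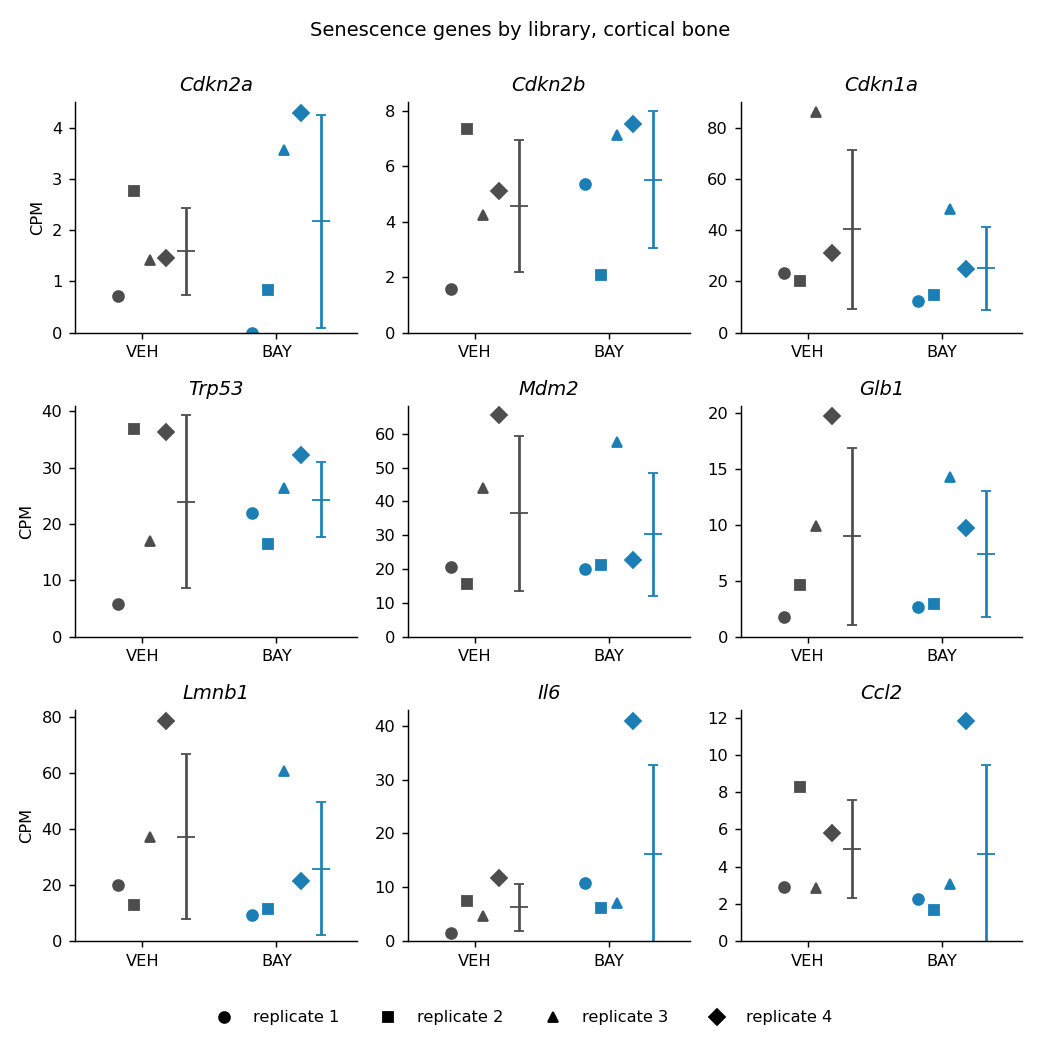
CPM of the 9 senescence genes in each cortical bone library of VEH (grey) and BAY (blue) mice, with marker shapes for replicates and a dash and bar for the mean and SD of 4 mice, cut at 0. VEH and BAY points overlap in every panel, and single libraries such as Il6 in BAY replicate 4 (40.8 CPM) lie far above the rest of their group.

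Among the CDK inhibitors, Cdkn2a was at the edge of detection in bone. The 2 products of this gene on chromosome 4 (89192708 to 89212890, minus strand, ENSMUSG00000044303) cannot be told apart in a gene-level value. Its counts were 5, 3, 4 and 2 reads in VEH replicates 1 to 4 and 0, 2, 7 and 4 reads in BAY replicates 1 to 4. These correspond to 0.719, 2.76, 1.42 and 1.46 CPM in VEH and 0, 0.827, 3.56 and 4.30 CPM in BAY. BAY thus held both the empty library and the highest ones. The log2 fold change of −2.91 ± 3.65 (SE, 95% interval −10.81 to 4.98, adjusted P = 0.887 in limma) was set by the library at 0, whose value is the offset of the log scale. On log2(CPM + 1) the difference was 0.05 (exact permutation P = 0.914, n = 4 mice per group).

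Cdkn2b lies 11645 bases away on the same strand (89224536 to 89229276, ENSMUSG00000073802) and had slightly more reads. The counts were 11, 8, 12 and 7 in VEH and 12, 5, 14 and 7 in BAY, or 1.58, 7.36, 4.25 and 5.10 CPM against 5.36, 2.07, 7.13 and 7.52 CPM. The means of 4.57 ± 2.39 CPM (SD, n = 4) in VEH and 5.52 ± 2.49 CPM in BAY lay well within each other's spread. The log2 fold change was 0.31 ± 1.11 (95% interval −2.09 to 2.71, P = 0.785 in limma, exact permutation P = 0.543), and it turned negative without VEH replicate 1, at −0.14, and under median centring, at −0.54. That centring moved the median of all bone genes from 0.84 to −0.01.

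Cdkn1a (chromosome 17, 29309950 to 29319701, plus strand, ENSMUSG00000023067) had the highest CPM of the 3 CDK inhibitor genes among the members. VEH mice had 23.4, 20.3, 86.5 and 31.3 CPM and BAY mice had 12.5, 14.9, 48.4 and 24.7 CPM. Replicate 3 was the highest library of both groups. The same libraries had the highest osteoblast and osteocyte marker sum of their group, at 5206 and 2628 CPM, and the part of this in the Cdkn1a values was not tested. The means were 40.4 ± 31.1 CPM in VEH and 25.1 ± 16.4 CPM in BAY (SD, n = 4), and the log2 fold change was −0.63 ± 0.68 (95% interval −2.11 to 0.84, P = 0.371 in limma, exact permutation P = 0.4). Without VEH replicate 3 it was −0.18 and without BAY replicate 3 it was −1.02.

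Trp53 (chromosome 11, 69471185 to 69482699, plus strand, ENSMUSG00000059552) was the most evenly counted member in bone, with 40 to 50 reads in VEH and 30 to 52 reads in BAY. In CPM the VEH libraries held 5.75, 36.8, 17.0 and 36.4 and the BAY libraries 21.9, 16.5, 26.5 and 32.2. The lowest value was that of VEH replicate 1, the deepest library. Means were 24.0 ± 15.3 CPM and 24.3 ± 6.68 CPM (SD, n = 4), the log2 fold change was 0.31 ± 0.71 (95% interval −1.24 to 1.85, P = 0.672 in limma, exact permutation P = 0.8), and without VEH replicate 1 it was −0.27.

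Mdm2 (chromosome 10, 117524780 to 117546663, minus strand, ENSMUSG00000020184), the p53 target and antagonist, had 20.7, 15.7, 43.9 and 65.5 CPM in VEH and 20.1, 21.1, 57.5 and 22.6 CPM in BAY. VEH replicates 3 and 4 and BAY replicate 3 were the high libraries. The means were 36.5 ± 23.0 and 30.3 ± 18.2 CPM (SD, n = 4), with a log2 fold change of −0.19 ± 0.66 (95% interval −1.61 to 1.23, P = 0.777 in limma, exact permutation P = 0.857). With 1 library left out it ran from −0.55 (without BAY replicate 3) to 0.17 (without VEH replicate 4).

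Glb1 (chromosome 9, 114230144 to 114303966, plus strand, ENSMUSG00000045594) and Lmnb1 (chromosome 18, ENSMUSG00000024590) are the organelle markers, the first of which is high and the other low in senescent cells. Glb1 was at 1.73, 4.60, 9.92 and 19.7 CPM in VEH and 2.68, 2.89, 14.3 and 9.67 CPM in BAY. Lmnb1 was at 20.0, 12.9, 37.2 and 78.6 CPM in VEH and 9.39, 11.6, 60.6 and 21.5 CPM in BAY. Both genes were highest in VEH replicate 4 and BAY replicate 3. Those were also the libraries with the highest neutrophil marker sum (7 of 7 markers in the table), at 1958 CPM against 83.8 to 508 CPM in the other VEH libraries and at 1127 CPM against 53.6 to 174 CPM in the other BAY libraries. The same libraries were also the highest of their group for the macrophage (812 and 542 CPM), osteoclast (1027 and 1070 CPM) and fibroblast (820 and 549 CPM) markers. The part of these cell types in the values of Glb1 and Lmnb1 was not tested. The log2 fold change was −0.13 ± 1.10 for Glb1 (95% interval −2.51 to 2.25, P = 0.906 in limma, exact permutation P = 0.8) and −0.60 ± 0.78 for Lmnb1 (95% interval −2.29 to 1.08, P = 0.453 in limma, exact permutation P = 0.457). With 1 library left out, Glb1 ran from −0.75 (without VEH replicate 1) to 0.42 (without VEH replicate 4) and Lmnb1 from −1.15 (without BAY replicate 3) to −0.13 (without VEH replicate 4).

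The secreted factors were low. Il6 (chromosome 5, 30218112 to 30224979, plus strand, ENSMUSG00000025746) had 10, 8, 13 and 16 reads in VEH and 24, 15, 14 and 38 reads in BAY. As CPM these were 1.44, 7.36, 4.61 and 11.6 in VEH and 10.7, 6.20, 7.13 and 40.8 in BAY. BAY replicate 4 was the highest by far, and 11 of the 16 BAY and VEH pairs had the higher value in BAY. That library was the shallowest, with 930306 reads, and had the highest olfactory receptor level, 9.50 CPM per kilobase. The means were 6.26 ± 4.33 CPM in VEH and 16.2 ± 16.5 CPM in BAY (SD, n = 4), and the log2 fold change was 1.27 ± 1.00 (95% interval −0.89 to 3.43, P = 0.225 in limma, exact permutation P = 0.286). Without BAY replicate 4 it was 0.68 and without VEH replicate 1 it was 0.69. It was 0.42 with median centring, 0.69 with quantile normalization and 0.61 with array weights. Ccl2 (chromosome 11, 81926397 to 81928279, plus strand, ENSMUSG00000035385) had 20, 9, 8 and 8 reads in VEH and 5, 4, 6 and 11 reads in BAY, or 2.88, 8.29, 2.83 and 5.82 CPM against 2.24, 1.65, 3.06 and 11.8 CPM. Its log2 fold change was −0.39 ± 1.20 (95% interval −2.98 to 2.20, P = 0.750 in limma, exact permutation P = 0.686). With 1 library left out it ran from −0.99 (without BAY replicate 4) to −0.04 (without BAY replicate 2), and it was −1.24 with median centring, −1.64 with quantile normalization and −1.25 with array weights, each with an unadjusted P value over 0.05. BAY replicates 1 and 2, with the high muscle fibre sums, had the lowest BAY values of Ccl2. They also did of Cdkn2a, Cdkn2b, Cdkn1a, Trp53, Mdm2, Glb1 and Lmnb1, though not of Il6. The part of the fibre signal in these values was not tested.

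A second question was whether these bone values stood above the level of genes that the tissue should not transcribe. Per kilobase of exon and within the same library, the members were set against the summed olfactory receptor genes. Cdkn1a and Trp53 lay above that level in 8 of 8 libraries, at 1.34 to 88.1 and 1.84 to 22.5 times it. Il6 lay above it in 7 libraries, Mdm2 and Ccl2 in 6, Lmnb1 in 5, Glb1 in 4, Cdkn2a in 3 and Cdkn2b in 2. At 3 times the level the counts were 6 libraries for Trp53, 4 for Mdm2 and Lmnb1, 3 for Cdkn1a, 2 for Il6 and 1 each for the remaining genes. VEH replicate 1 had the highest ratio for all 9 genes, for example 48.3 for Mdm2 and 6.10 for Cdkn2a.

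**Figure D2:**
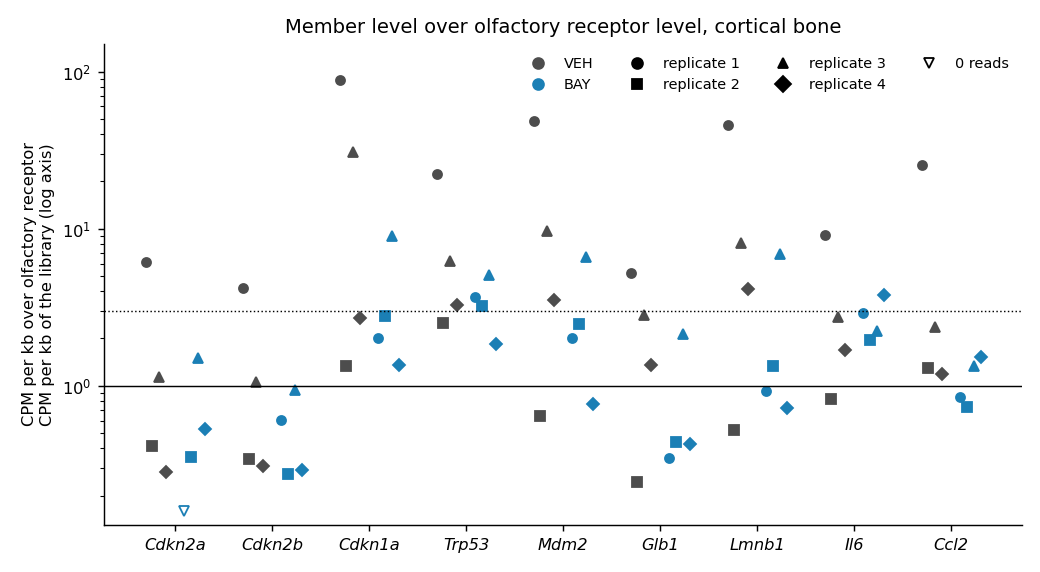
Member CPM per kilobase divided by the olfactory receptor CPM per kilobase of the same cortical bone library (log axis), with VEH in grey, BAY in blue and lines at 1 and 3. VEH replicate 1 (grey circles) tops every gene, and most Cdkn2a and Cdkn2b points lie under 1. The open triangle is the BAY library with 0 reads of Cdkn2a, drawn at the lower edge.

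In skeletal muscle the intervals of all 6 members were narrower than in bone. None of the 6 members was called (2.43% of all muscle genes were). Mdm2 alone had an unadjusted P value under 0.05, with a lower level in BAY, where 9.79% of all muscle genes had such a P value in either direction. The groups overlapped for all 6 members, against 5.73% of all genes whose groups did not overlap. Adjusted P values of the 6 in limma with Benjamini-Hochberg adjustment ran from 0.477 upward.

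**Figure D3:**
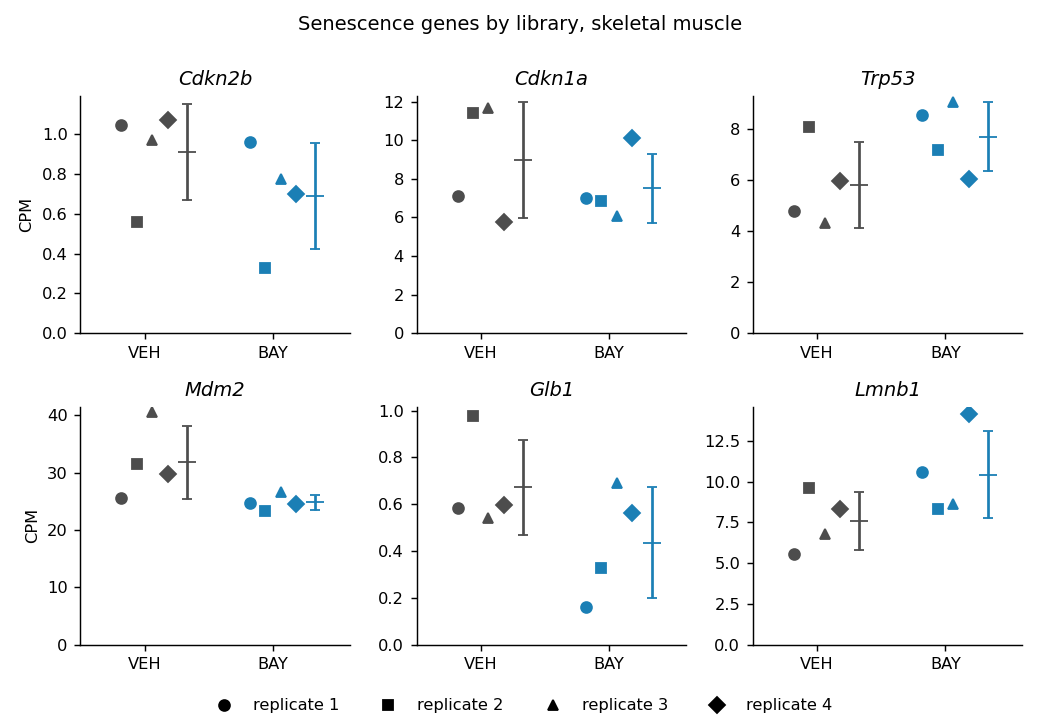
CPM of the 6 senescence genes with a row in the skeletal muscle table, by library, with VEH in grey, BAY in blue, marker shapes for replicates and a dash and bar for the mean and SD of 4 mice. Mdm2 in BAY spans 23.3 to 26.6 CPM and touches the VEH range from 25.5 to 40.6 CPM.

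Mdm2 in muscle had 25.5, 31.5, 40.6 and 29.7 CPM in VEH and 24.8, 23.3, 26.6 and 24.5 CPM in BAY, on 143 to 376 reads. The BAY values were close together, and only 1 of the 16 pairs had the higher value in BAY. Means were 31.8 ± 6.37 CPM in VEH and 24.8 ± 1.34 CPM in BAY (SD, n = 4). The log2 fold change was −0.34 ± 0.15 (95% interval −0.65 to −0.03), with P = 0.0354 and an adjusted P of 0.477 in limma, and the exact permutation P was 0.0571 where the smallest possible is 0.0286. The highest VEH value was that of replicate 3, the library with the high adipocyte sum, and without it the log2 fold change was −0.22 (adjusted P = 0.566 in limma) and the unadjusted P value was over 0.05. The unadjusted P value was also over 0.05 without VEH replicate 2, without BAY replicate 1, 2 or 4, without a mean-variance trend and with voom on recovered reads. It was under 0.05 with a log2 fold change of larger size in limma without VEH replicate 1 (−0.44, adjusted P = 0.651), without VEH replicate 4 (−0.37, adjusted P = 0.499) and without BAY replicate 3 (−0.37, adjusted P = 0.599). The same held under median centring (−0.39, adjusted P = 0.204) and quantile normalization (−0.38, adjusted P = 0.193). Over all alternatives the adjusted P ran from 0.193 to 0.675.

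Trp53 in muscle had 4.77, 8.09, 4.32 and 5.96 CPM in VEH and 8.53, 7.18, 9.03 and 6.03 CPM in BAY, on 40 to 70 reads. BAY was higher in 14 of the 16 pairs, and VEH replicate 2 was the value that reached into the BAY range. Means were 5.79 ± 1.68 CPM and 7.69 ± 1.36 CPM (SD, n = 4), and the log2 fold change was 0.44 ± 0.23 (95% interval −0.06 to 0.93, P = 0.0800 in limma, exact permutation P = 0.114). Without VEH replicate 2 it was 0.61 (adjusted P = 0.360 in limma), with an unadjusted P value under 0.05, as it was without BAY replicate 4 (0.55, adjusted P = 0.581), and without VEH replicate 3 the log2 fold change was 0.31 (adjusted P = 0.677).

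Cdkn1a in muscle had 7.10, 11.4, 11.7 and 5.74 CPM in VEH and 7.02, 6.85, 6.06 and 10.1 CPM in BAY. Each group held high and low libraries. The log2 fold change was −0.22 ± 0.25 (95% interval −0.76 to 0.32, P = 0.395 in limma, exact permutation P = 0.514), and with 1 library left out it ran from −0.41 (without VEH replicate 4) to −0.07 (without VEH replicate 3). Cdkn2b had 9, 4, 9 and 9 reads in VEH and 7, 2, 6 and 5 reads in BAY, means of 0.913 ± 0.241 CPM and 0.691 ± 0.267 CPM (SD, n = 4), and a log2 fold change of −0.46 ± 0.59 (95% interval −1.73 to 0.81, P = 0.451 in limma, exact permutation P = 0.286). That value ran from −0.68 (without VEH replicate 2) to −0.13 (without BAY replicate 2).

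Lmnb1 in muscle had 5.59, 9.62, 6.80 and 8.35 CPM in VEH and 10.6, 8.32, 8.64 and 14.2 CPM in BAY. BAY was higher in 13 of the 16 pairs, with VEH replicates 2 and 4 inside the BAY range. The means were 7.59 ± 1.76 CPM and 10.4 ± 2.68 CPM (SD, n = 4), and the log2 fold change was 0.46 ± 0.22 (95% interval −0.02 to 0.93, P = 0.0590 in limma, exact permutation P = 0.143). It was 0.58 without VEH replicate 2 and 0.30 without BAY replicate 4. The unadjusted P value was under 0.05 without VEH replicate 2, where the adjusted P was 0.407, without BAY replicate 2, where the adjusted P was 0.517, and with voom on recovered reads, where the adjusted P was 0.466. The satellite cell markers (4 of 4) were also mostly higher in BAY, at 2.33, 4.46, 3.78 and 2.98 CPM in VEH and 5.92, 7.83, 5.03 and 3.37 CPM in BAY, and the part of these cells in the Trp53 and Lmnb1 values was not tested. Glb1 was at or near the floor, with 5, 7, 5 and 5 reads in VEH and 1.17, 2, 5.36 and 4 reads in BAY, where the decimals come from reads shared between genes. Its log2 fold change was −0.79 ± 0.74 (95% interval −2.38 to 0.80, P = 0.303 in limma, exact permutation P = 0.229), and it ran from −1.08 (without BAY replicate 3) to −0.38 (without BAY replicate 1).

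**Figure D4:**
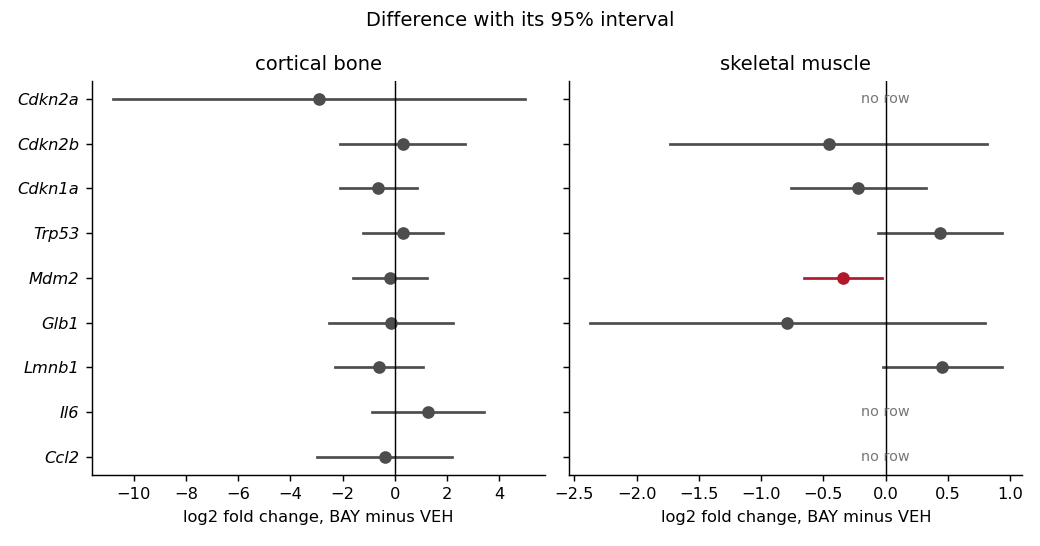
Log2 fold change of BAY over VEH (points) with its 95% interval from limma (lines) for each member in cortical bone and skeletal muscle, on separate horizontal scales. Every bone interval spans 0, and in muscle the interval of Mdm2 (red, −0.65 to −0.03) is the one that does not.

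Levels were also set side by side per kilobase of exon, with no test between tissues, whose tables were normalized separately. In VEH muscle, Mdm2 led with 10.3 ± 2.05 CPM per kilobase (SD, n = 4), followed by Cdkn1a at 4.67 ± 1.57, Trp53 at 3.13 ± 0.910, Lmnb1 at 2.42 ± 0.562, Cdkn2b at 0.335 ± 0.0884 and Glb1 at 0.281 ± 0.0847. The ranges of Cdkn1a and Trp53, of Trp53 and Lmnb1, and of Cdkn2b and Glb1 overlapped, while Mdm2 lay above Cdkn1a and Lmnb1 above Cdkn2b in all 4 libraries. In VEH bone the order was Cdkn1a at 21.0 ± 16.2, Trp53 at 13.0 ± 8.26, Lmnb1 at 11.8 ± 9.39, Mdm2 at 11.8 ± 7.41, Ccl2 at 6.09 ± 3.23, Il6 at 5.49 ± 3.79, Glb1 at 3.74 ± 3.29, Cdkn2a at 1.86 ± 1.00 and Cdkn2b at 1.68 ± 0.878 CPM per kilobase, and every neighbour in it overlapped the next. Against the olfactory receptor genes of muscle, at 0.157 to 0.219 CPM per kilobase, Cdkn1a, Trp53, Mdm2 and Lmnb1 exceeded 3 times the level in 8 of 8 libraries, and Cdkn2b and Glb1 in 0 of 8. The muscle level rests on the 43 olfactory receptor genes that had a row, against 1355 in bone. Receptors without a row do not enter it, so it is unlike the bone level. It cannot tell whether Cdkn2b and Glb1 lie at background. The lowest total of any listed gene was 5 reads over the 8 libraries in each table, so a gene with no row in muscle has no value here.

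The wider pathway was read from 8 lists of 119 genes. In bone, no listed gene passed the unadjusted threshold of 0.05 by limma or by voom, against 0.64% and 3.68% of all genes. The list medians ran from −0.33 for the other secreted factors (12 higher, 17 lower) to 0.48 for the p53 regulators such as Mdm4 and Atm (8 higher, 2 lower), beside 0.84 for all bone genes. The p53 targets had a median of 0.16 (14 higher, 6 lower). The other CDK inhibitors, CDKs and cyclins, listed with RB proteins and E2f1 (the CDK and cyclin list), had 0.07 (10 and 6). The lamins and chromatin proteins had −0.07 (1 and 7), the lysosomal proteins −0.09 (7 and 8), the proliferation genes −0.13 (5 and 7) and the receptors and signalling genes of Il6 and Ccl2 −0.14 (2 and 6). Without VEH replicate 1 the median of all genes was −0.09 and those of the p53 targets, the p53 regulators and the CDK and cyclin list were −0.26, −0.27 and −0.51. Without VEH replicate 3 the receptor and signalling list had a median of 0.01 (5 and 3). The medians of the secreted factors, proliferation genes, lamins and chromatin proteins and lysosomal proteins were 0.07, 0.37, 0.21 and 0.35 without VEH replicate 4, so each of the 8 list medians in bone turned in sign with some single library left out. On log2(CPM + 1) the medians were 0.40 for all bone genes, −0.21 for the secreted factors, 0.31 for the p53 regulators and −0.19 for the proliferation genes.

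In muscle, 18 of the 20 listed p53 targets had a row, and 5 of them had an unadjusted P value under 0.05, where 9.79% of all genes did. They went both ways, with 2 higher and 3 lower in BAY, and none was called. Xpc, which recognises damaged DNA in nucleotide excision repair, had 11.1 to 13.3 CPM in VEH and 14.7 to 19.9 CPM in BAY without overlap (log2 fold change 0.48 ± 0.15, P = 0.00616 and adjusted P = 0.334 in limma, exact permutation P = 0.0286, the smallest possible). Btg2, an antiproliferative and early-response gene, had 5.70 to 11.0 CPM in VEH and 8.15 to 23.6 CPM in BAY (0.87 ± 0.28, P = 0.00848 and adjusted P = 0.355 in limma, exact permutation P = 0.0571). Both were also higher without VEH replicate 3, by 0.53 and 1.05.

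The lower p53 targets included Eda2r, the receptor of ectodysplasin A2, which had 8.61, 15.1, 18.8 and 7.40 CPM in VEH and 7.29, 4.57, 6.58 and 8.13 CPM in BAY (log2 fold change −0.83 ± 0.29, P = 0.0117 and adjusted P = 0.378 in limma, exact permutation P = 0.0571). Ccng1, the cyclin G1 gene, had 308, 278, 583 and 224 CPM in VEH and 197, 233, 215 and 206 CPM in BAY (−0.62 ± 0.23, P = 0.0181 and adjusted P = 0.410 in limma, exact permutation P = 0.0571). VEH replicate 3 was the highest library for both, as it was for Mdm2 and Cdkn1a. Without it the log2 fold changes were −0.60 for Eda2r and −0.34 for Ccng1, both with an unadjusted P value under 0.05 in limma. That of Ccng1 was over 0.05 without BAY replicate 1 (−0.58), while Xpc, Btg2 and Eda2r stayed under 0.05 with any 1 library left out. Ei24, a gene of the endoplasmic reticulum and autophagy that was named after its values were seen, was the third (−0.31 ± 0.14, P = 0.0460 in limma, exact permutation P = 0.0571), and its unadjusted P value was over 0.05 in 6 of the 8 settings with 1 library left out, all but those without VEH replicate 4 or BAY replicate 4. The list median was −0.26 (5 higher, 13 lower) with all libraries and −0.03 (8 higher, 10 lower) without VEH replicate 3, while the median of all genes was 0.06 and 0.12. In that setting 9.79% of all genes and 4 of the 18 targets had an unadjusted P value under 0.05. On log2(CPM + 1) with all libraries the list median was −0.15. The part of the adipocyte, macrophage (32.2 CPM against 9.42 to 14.9 CPM in the other VEH libraries, 8 of 8 markers) and fibroblast (202 CPM against 53.9 to 74.6 CPM, 5 of 5 markers) signal of that library in these values was not tested.

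**Figure D5:**
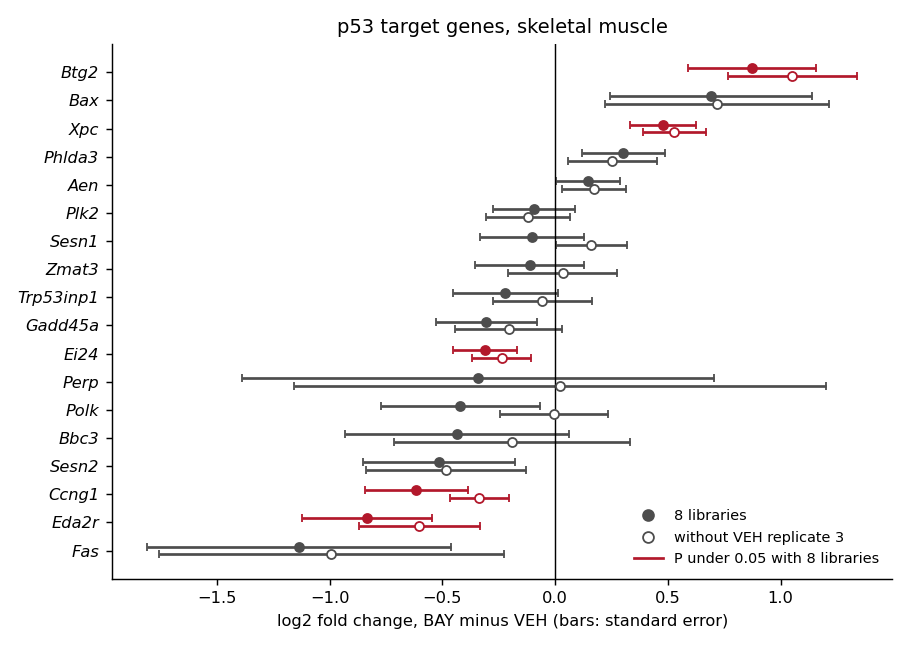
Log2 fold change of BAY over VEH for the 18 p53 targets in skeletal muscle, with the standard error as bars, for all 8 libraries (filled) and without VEH replicate 3 (open), and red for an unadjusted P value under 0.05 with all libraries. Xpc and Btg2 lie above 0 and Eda2r, Ccng1 and Ei24 below it in both settings.

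Among the other secreted factors, 18 of 30 had a row in muscle, and the inflammatory ligands Il1a, Il1b, Cxcl2, Cxcl5, Ccl3, Ccl4, Ccl7 and Ccl8 had none. Vegfa, the main growth factor of vessels, had 221 to 314 CPM in VEH and 312 to 343 CPM in BAY (log2 fold change 0.35 ± 0.13, P = 0.0213 and adjusted P = 0.426 in limma, exact permutation P = 0.0571). Igfbp7, an IGF-binding protein secreted by vessel and stromal cells, had 10.1 to 20.2 CPM in VEH and 18.7 to 25.5 CPM in BAY (0.57 ± 0.23, P = 0.0257 and adjusted P = 0.448 in limma, exact permutation P = 0.171). The unadjusted P value was over 0.05 for Vegfa without BAY replicate 3 and for Igfbp7 without VEH replicate 1 or 4 or BAY replicate 3 or 4. Both overlapped, and the list median was 0.19 (13 higher, 5 lower), or −0.0035 without VEH replicate 4 and 0.33 without VEH replicate 3. Hmgb1, a chromatin protein that leaves the nucleus of senescent cells, was the single gene with such a P value among the 8 lamins and chromatin proteins, with 20.4 to 38.2 CPM in VEH and 15.9 to 27.3 CPM in BAY (−0.44 ± 0.20, P = 0.0468 and adjusted P = 0.503 in limma, exact permutation P = 0.143). Its unadjusted P value was over 0.05 in 6 of the 8 settings with 1 library left out, all but those without VEH replicate 4 or BAY replicate 2. The highest Hmgb1 value, 38.2 CPM, was that of VEH replicate 3, the library with the high adipocyte, macrophage and fibroblast sums. Without that library the log2 fold change of Hmgb1 was −0.27. Voom on recovered reads, by which 10.5% of all genes had such a P value under 0.05, gave 2 lower genes in this list, Hmgb1 and Hmgb3, the latter named after its values were seen. The CDK and cyclin list (15 with a row, median −0.20), the proliferation genes (7, median −0.29), the lysosomal proteins (15, median −0.19), the p53 regulators (9, median 0.00) and the receptors and signalling genes of Il6 and Ccl2 (8, median −0.12) had no gene with an unadjusted P value under 0.05 in limma. Voom gave 1 in the first and 1 in the last of these lists. Without VEH replicate 3, where 9.79% of all genes passed the unadjusted threshold of 0.05, 4 secreted factors were higher in BAY and passed it in place of 2, the added ones being Cxcl1, on at most 2 reads per library, and Timp2 (0.38 ± 0.14). In the same setting 2 genes of the CDK and cyclin list (Cdkn1c at 0.80 ± 0.22 and Ccnd3 at 0.77 ± 0.25) and 1 p53 regulator (Ppm1d at 0.62 ± 0.24) were higher in BAY and passed it, and these 5 genes were named after their values were seen. The medians were then −0.04 for the CDK and cyclin list, −0.06 for the lysosomal proteins, 0.03 for the receptors and signalling genes (5 higher, 3 lower) and 0.05 for the lamins and chromatin proteins. The median of the proliferation genes was 0.18 without BAY replicate 3, and that of the p53 regulators ran from −0.07 to 0.10 with 1 library left out. On log2(CPM + 1) the medians were 0.08 for the secreted factors, −0.10 for the CDK and cyclin list, −0.14 for the proliferation genes and −0.06 for the receptors and signalling genes.

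Finally, the genes whose pattern over the 8 libraries was most like a member were found by the root mean square difference of centred log2(CPM + 1) profiles, for members with at least 10 reads in every library. In muscle these were Gadd45a (0.123) and Ppp1r2-ps4 (0.128) for Cdkn1a, Sgk1 (0.0823) and Gm26724 (0.0847) for Trp53, AW209491 (0.0494) and Smc6 (0.0622) for Mdm2, and Sorcs1 (0.0893) and Flicr (0.0894) for Lmnb1, out of 13169 genes. Gadd45a is itself on the p53 target list. In bone, out of 35015 genes, they were Cped1 (0.246) and Afap1l2 (0.254) for Cdkn1a, Tubgcp3 (0.0677) and Nsmaf (0.0763) for Trp53, Irf2bp2 (0.0900) and Zfr (0.116) for Mdm2, and Gm10076 (0.168) and Ppib (0.173) for Lmnb1. All genes of a library share its depth and tissue makeup, which differed between libraries, and the likeness is a description.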

How the data were processed

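RNA-seq was analysed for 16 libraries, 4 BAY and 4 VEH in cortical bone and in skeletal muscle, grouped by the library names in the labels. The authors aligned reads with STAR (2.7.8a) to mm39, quantified Ensembl release 104 genes by Partek E/M and deposited log2 values of CPM plus an offset (0.0001 in bone, 0.0004 in muscle, read from the lowest value). The value of 1 read was recovered from the steps between low values, and among values of at most 50 reads, 81.1% to 88.3% per library came out whole to within 0.02.

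BAY was compared with VEH by limma (3.58.1, R 4.3.3), using lmFit and a trended eBayes, two-sided, without a filter, with Benjamini-Hochberg adjustment over all genes. Genes at an unadjusted P below 0.05 and at least a 2-fold change were called. Intervals are 95%. Exact permutation tests used the 70 assignments of 8 libraries on log2(CPM + 1). The authors' methods name limma-voom, which was run on recovered reads as an alternative. Exon lengths are those of canonical transcripts in GENCODE release M39. The fits and the step search were tested on simulated data. The members and lists were chosen with earlier results of these data known. Named were the members, up to 4 genes per list and tissue with the smallest unadjusted P under 0.05, and the 2 genes most like each well-counted member. Python (3.11.15) with numpy (2.4.6), pandas (2.3.3), scipy (1.17.1) and matplotlib (3.10.9) was used.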

Additional observations from a re-analysis of the deposited data

Results flagged for a closer look

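Mdm2 in cortical bone of BAY mice had 1 library far above the others of its group, replicate 3 at 57.5 CPM, with the other BAY libraries at 20.1, 21.1 and 22.6 CPM. Glb1 in skeletal muscle of VEH mice had replicate 2 at 0.976 CPM and the other VEH libraries at 0.582, 0.540 and 0.596 CPM, a difference of 7 against 5 reads. Chance alone marks about 1 in 20 groups of 4 in this way.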

How the results depend on the processing

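No senescence gene was called in either tissue under any alternative run. Called genes over the whole bone table numbered 249, against 82 with a mean of at least 1 CPM, 443 with median centring, 705 with quantile normalization, 408 without a trend, 901 with array weights, 1433 with voom on recovered reads, 5 at 3 times the olfactory receptor level and 115 to 1116 with 1 library left out (without VEH replicate 3 and without VEH replicate 2). In muscle the 510 called genes became 52 on log2(CPM + 1), 193 with a mean of at least 1 CPM and 322 at 3 times the olfactory receptor level, and 448 to 567 with 1 library left out. In both tissues this filter set a gene's mean CPM per kilobase against the median olfactory receptor gene. It is thus another measure than the summed level within each library used above, and in muscle it kept Cdkn2b and Glb1. Unadjusted P values under 0.05 among the muscle members, 1 with all libraries, numbered 0 without a trend and 0 to 2 with 1 library left out.

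Of 261 single-gene fold changes under an alternative, 17 turned in sign, all in bone, and their causes were not tested. Cdkn2a was 0.051 on log2(CPM + 1) and ran from −4.42 to 0.71 with 1 library left out. Cdkn2b was −0.54 with median centring, −1.08 with quantile normalization and −0.45 with array weights (−0.14 to 0.73 left out). Trp53 was −0.54, −0.17 and −0.36 under the same 3 settings (−0.27 to 0.63). Mdm2 was 0.12 with array weights (−0.55 to 0.17), and Glb1 was 0.23 with voom (−0.75 to 0.42). Others moved by over 1.5 times without turning. With median centring Cdkn1a was −1.48, Lmnb1 −1.45, Mdm2 −1.04 and Glb1 −0.98 in bone. With quantile normalization Lmnb1 was −0.93, Glb1 −0.92 and Mdm2 −0.44. With array weights Cdkn2a was −7.04, Glb1 −0.58 and Lmnb1 −0.40. With voom Cdkn2a was −0.08, Cdkn2b 0.56, Trp53 0.72, Mdm2 −0.11 and Ccl2 −0.20. On log2(CPM + 1) the muscle values of Cdkn2b and Glb1 were −0.18 and −0.23.

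The replicate numbers are shared by the groups but belong to different mice. Deviations of same-numbered libraries correlated at −0.11 to 0.19 in bone and −0.09 to 0.01 in muscle, so the numbers did not pair the samples. With the replicate number as a block, 305 bone and 489 muscle genes were called and 0 senescence genes in each. Depth limits the members with fewer than 10 reads in a library, which are several in bone and Cdkn2b and Glb1 in muscle.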
